A study of Mus musculus with 2 samples.

Results

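Cells handle zinc, iron and copper with a fixed set of proteins, and the transcripts of 42 such genes were measured in embryonic mouse kidney. The genes were all protein-coding genes whose symbol begins with Slc30a, Slc39a, Slc11a, Slc31a or Slc40a and a number, together with Mt1, Mt2, Mt3, Fth1, Ftl1, Tfrc, Tfr2, Heph, Atp7a, Atp7b, Ireb2, Aco1 and Lcn2. They were 42 of 21474 protein-coding genes that could be matched by Ensembl identifier, out of 43346 mouse genes in the tables. The rule itself uses symbols and no measured value, although it was written with earlier results of these data known. Total RNA was sequenced from whole kidneys of healthy B6NCrl mouse embryos at day 15.5, with males and females pooled. The study had 1 group with 2 biological replicate libraries, the replicate 1 library from a pool of 78 embryos and the replicate 2 library from a pool of 62 embryos, each made from 10 ng of RNA. No treatment, mutant allele or second tissue was part of the design, so each value describes this tissue at this stage, and the spread given is that between the pools.

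Metals are both needed and toxic, so a cell balances import, export, storage and delivery. Transporters of the Slc39a (ZIP) family bring zinc into the cytosol, those of the Slc30a (ZnT) family mostly take it out of the cytosol, and metallothioneins bind what is left. Iron enters on transferrin through the transferrin receptor, crosses the endosomal membrane through the divalent metal transporter Slc11a2, is stored in ferritin and leaves through ferroportin, Slc40a1. Iron regulatory proteins bind a short stem-loop, the iron-responsive element, and through it block translation of messages that carry it in the 5′ UTR or protect messages that carry it in the 3′ UTR. Zinc acts on transcription through the metal response elements bound by the factor Mtf1. In the kidney these genes are known for the recovery of filtered metals by the tubule, and the embryonic kidney also contains the forming blood vessels and circulating blood.

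The labelled tissue was checked against marker genes. All 6 proximal tubule, 5 nephron progenitor and 6 ureteric bud markers were detected, that is, they reached 1 TPM (a length-adjusted transcript level) or more in both libraries. Their summed levels were 172 and 178, 267 and 268, and 478 and 439 TPM in replicates 1 and 2. Markers of neighbouring organs were also present, and their sums differed more between the pools. Of these, 7 of 8 liver markers, 3 of 5 gut epithelium markers and all adrenal and skeletal muscle markers were detected. Summed liver markers stood at 207 and 385 TPM, adrenal cortex markers at 44.9 and 149 TPM, adrenal medulla and sympathetic markers at 16.9 and 96.1 TPM, skeletal muscle markers at 367 and 193 TPM and gut epithelium markers at 79.3 and 20.3 TPM. Red cell markers summed to 21731 and 24733 TPM, so red cell transcripts were abundant in both libraries. The libraries held 36244861 and 39415002 expected counts.

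The stem-loops are shown because they separate the iron genes by the end of the message at which the element lies. The annotated transcripts were searched for a bulged C, 5 bases of stem and the loop CAGTGN, followed by 5 bases able to pair with the stem, where 1 base could be unpaired or 1 extra base could stand on the 3′ side. Capitals mark the bulged C and the loop with the base after it, and every stretch is 28 bases of the message, 5′ to 3′, from GENCODE M21 on GRCm38.
Fth1, 5′ UTR, chr19:9982733-9982760, + strand: tcctgCttcaaCAGTGCttgaacggaac
Ftl1, 5′ UTR, chr7:45459779-45459806, - strand: tcttgCttcaaCAGTGTttgaacggaac
Slc40a1, 5′ UTR, chr1:45925465-45925492, - strand: aacttCagctaCAGTGTtagctaagttt
Tfrc, 3′ UTR, chr16:32631220-32631247, + strand: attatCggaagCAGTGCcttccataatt
Tfrc, 3′ UTR, chr16:32631599-32631626, + strand: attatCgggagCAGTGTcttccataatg
Tfrc, 3′ UTR, chr16:32631664-32631691, + strand: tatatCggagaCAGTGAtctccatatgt
Tfrc, 3′ UTR, chr16:32631711-32631738, + strand: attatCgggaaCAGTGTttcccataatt
Slc11a2, 3′ UTR, chr15:100395153-100395180, - strand: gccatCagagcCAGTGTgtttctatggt

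Both ferritin messages and ferroportin carried 1 match each in the 5′ UTR, 132, 170 and 224 bases before the coding start in Fth1, Ftl1 and Slc40a1. Tfrc carried 4 matches in the 3′ UTR, between 892 and 1383 bases after the coding end, and Slc11a2 carried 1 match 41 bases after it. All of these except Slc11a2 had 5 full stem pairs, and Slc11a2 reached 5 only with 1 extra base on the 3′ side. In all, 9 of 42 genes had a match in a coding transcript and 5 had it in a UTR. The other 4, Heph, Lcn2, Slc11a1 and Slc30a6, had a match with 4 pairs in the coding sequence, which for Lcn2 was in a transcript listed at 0 TPM. Among 21428 protein-coding genes searched, 12.6% had a match of the looser form and 1.35% had 1 with 5 full pairs, so the looser form is common by itself. A match describes the letters only.

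The promoters of the metallothioneins are shown because the 3 genes are neighbours with unlike levels. Mt3, Mt2 and Mt1 lie in that order on the + strand of chromosome 8, with 18517 bases between Mt3 and Mt2 and 5513 bases between Mt2 and Mt1. The core searched for was TGCACNC or TGCGCNC on both strands, which is the core of the metal response element. Each stretch is the 120 bases upstream of both the RefSeq and the GENCODE start, from the RefSeq promoter table on GRCm38, with core matches in capitals.
Mt1, chr8:94178962-94179081, + strand: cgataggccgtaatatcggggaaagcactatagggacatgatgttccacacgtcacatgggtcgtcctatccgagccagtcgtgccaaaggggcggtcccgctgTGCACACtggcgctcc
Mt2, chr8:94172498-94172617, + strand: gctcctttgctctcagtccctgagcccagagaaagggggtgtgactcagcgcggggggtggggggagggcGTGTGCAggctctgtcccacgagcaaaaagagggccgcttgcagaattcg
Mt3, chr8:94152487-94152606, + strand: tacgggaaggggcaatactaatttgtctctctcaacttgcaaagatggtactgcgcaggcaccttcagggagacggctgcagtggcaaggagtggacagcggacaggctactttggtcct

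Over the whole promoter window, 250 bases before to 50 bases after the start, Mt2 had 4 core matches, Mt1 had 3 and Mt3 had 1. The match of Mt3 lay 27 bases after its RefSeq start, and 2 of the 3 matches of Mt1 lay 2 and 20 bases after its RefSeq start. Positions and counts rest on these annotated starts and on the window around them. Where transcription started in these libraries was not examined, so a match after an annotated start need not be transcribed. The counts of the 3 genes are for that reason not a like comparison of their promoters. Slc30a10 and Slc30a4 also had 3 matches each, and for Slc30a10 2 of them overlap on opposite strands, at -233 and -232 from the start. A promoter entry outside chromosome 18 was found for 35 of the 42 genes, with 44 promoters in all, and 20 of those promoters (45.5%) held at least 1 core. Of 32851 promoters of the same length in the table, 25.7% held at least 1 core, 7.11% held 2 or more and 1.97% held 3 or more. Slc30a1, the zinc exporter of the plasma membrane, had 2 matches, at -43 and 30 from its start.

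**Figure D1:**
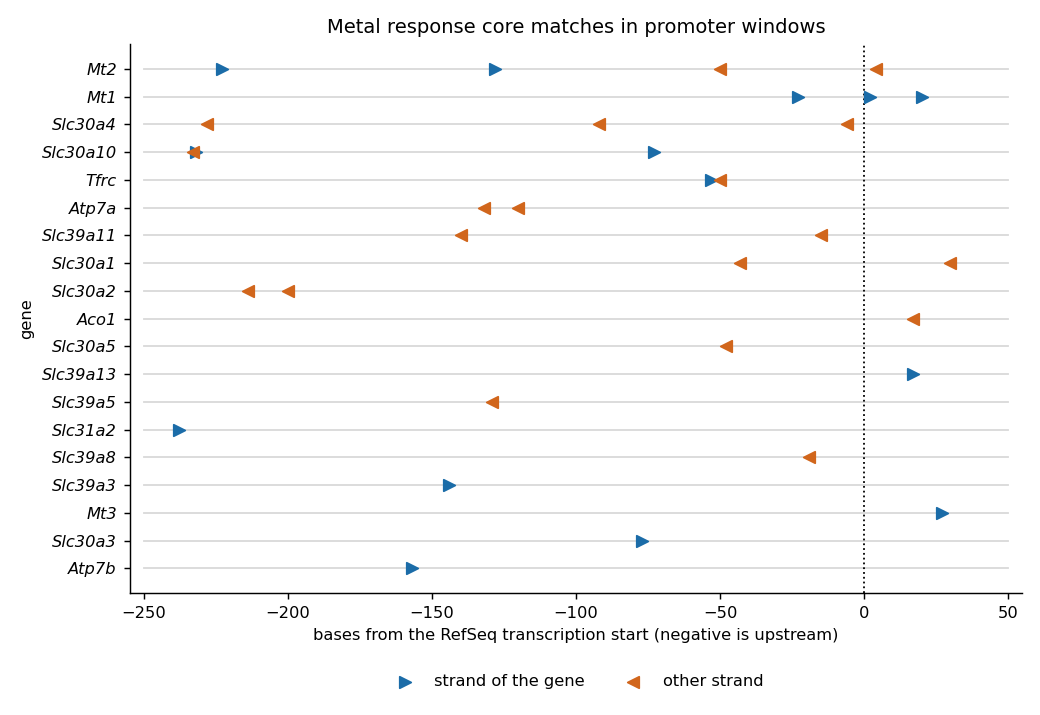
Position of each metal response core match (x axis, bases from the RefSeq start) in the promoters of the metal handling genes that had any (y axis), with triangles pointing by strand and the dotted line at the start. Genes with several promoters have their matches on 1 line, and Mt2, Mt1, Slc30a4 and Slc30a10 have 3 or more in a single window.

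Of the 42 genes, 34 (81.0%) were detected in both libraries, against 62.3% of all protein-coding genes, and 8 were below 1 TPM in both. The median of the mean TPM was 19.9 over the 42 genes and 5.25 over all protein-coding genes. Among detected genes alone these medians were 28.2 and 19.5 TPM. The 42 genes together held 6581 TPM in replicate 1 and 6751 TPM in replicate 2, which was 0.798% and 0.831% of the TPM of protein-coding genes. Ferritin made up 77.4% and 76.8% of that sum, and metallothioneins 8.44% and 9.04%. In bulk tissue, fewer cells of a type and less RNA per cell cannot be told apart.

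**Figure D2:**
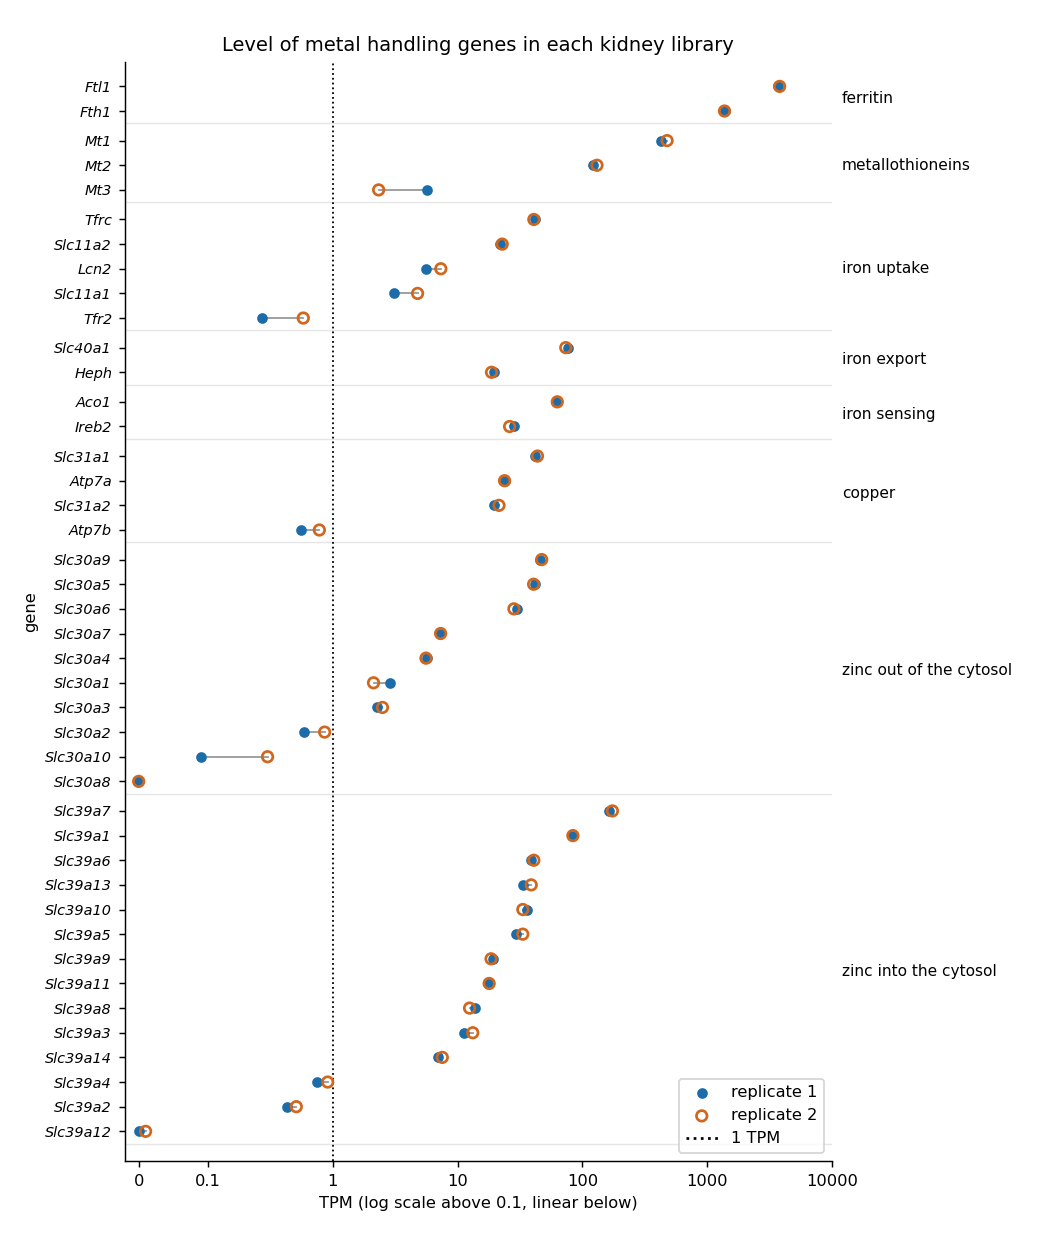
TPM of each of the 42 genes (x axis, logarithmic above 0.1 and linear below) in the replicate 1 library (filled) and the replicate 2 library (open), grouped by role, with the dotted line at 1 TPM. Ferritin and Mt1 lie at the top of the range, Mt3, Tfr2 and Slc30a10 show the widest gaps between libraries, and 8 genes lie below the line in both.

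To say whether genes differ in level, the replicate error was taken from all detected protein-coding genes. Expressed as an absolute log2 ratio of TPM between the libraries, its 95th percentile was 0.87 for genes of 1 to 3 TPM, 0.64 for 3 to 10 TPM, 0.34 for 10 to 30 TPM, 0.26 for 30 to 100 TPM and 0.24 above 100 TPM. A pair of genes was held to differ where log2(TPM + 1) differed in the same direction in both libraries, each time by more than this limit for the lower gene. These are comparisons of levels within libraries and carry no p-value, since 2 libraries leave 1 degree of freedom. The limit is the spread of the same gene between libraries. It was taken from TPM without the added 1, which shrinks differences between genes of a few TPM. The rule is therefore stricter for low genes, and a low step within the limit can be larger in TPM itself. With 0.1 added in place of 1, the number of pairs that differed, given next, stayed at 20. Biases of a gene that both libraries share, such as from its annotated length, are not part of it. By this rule 20 of 21 pairs of related genes differed. With the 99th percentile as the limit 17 did, and Slc30a1 with Slc30a10, Slc30a5 with Slc30a6 and Slc39a8 with Slc39a14 no longer passed.

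Ferritin, the cage that stores iron, was the most abundant product. Ftl1, the light subunit that aids mineral formation, stood at 3703 and 3807 TPM and ranked 9 among protein-coding genes. Fth1, the heavy subunit with the ferroxidase site, stood at 1389 and 1376 TPM and ranked 51. Both libraries gave the light subunit the higher level, with a mean difference in log2(TPM + 1) of Fth1 minus Ftl1 of -1.44 ± 0.037 (SD, n = 2), a 2.72-fold ratio of mean TPM.

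Reads of Ftl1 can be shared with a near copy, Ftl1-ps1, which is annotated as protein-coding and was listed at 47.5 and 45.4 TPM. Its expected count was 957 and 984, which is 1.22% and 1.13% of the count of Ftl1, and the quantifier's own standard deviation for it was 51.8 and 49.1 counts. For Ftl1 the same standard deviation was 58.7 and 58.6 counts on totals of 78529 and 86863. The split between the copies was therefore small against the count of Ftl1. Red cell precursors are known to make much ferritin, and the red cell markers given above were high in both libraries; their part in the ferritin level was not tested.

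Metallothioneins are small cysteine-rich proteins that bind zinc and copper. Mt1 stood at 429 and 477 TPM and Mt2 at 121 and 131 TPM, both a little higher in replicate 2. Mt3, the form best known from brain, stood at 5.67 and 2.33 TPM from 61 and 27 counts. The order Mt1, Mt2, Mt3 was the same in both libraries, and each step was beyond the limit. Mt1 exceeded Mt2 by 1.83 ± 0.033 in log2(TPM + 1) (SD, n = 2), a 3.59-fold ratio of mean TPM, while Mt2 exceeded Mt3 by 4.75 ± 0.78 and Mt1 exceeded Mt3 by 6.59 ± 0.82. The 3 genes summed to 556 and 610 TPM.

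Among the genes of iron uptake, the transferrin receptor Tfrc was the highest, at 41.7 and 40.8 TPM. Slc11a2, which moves ferrous iron out of the endosome, followed at 21.9 and 22.8 TPM. Lcn2, which binds iron-loaded siderophores, stood at 5.56 and 7.34 TPM, and Slc11a1, the transporter of the phagosome membrane in macrophages, at 3.08 and 4.78 TPM. The step from Lcn2 to Slc11a1 was not beyond the limit in replicate 2, while the other steps of this order were.

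The second transferrin receptor, Tfr2, which senses iron-loaded transferrin in liver and red cell precursors, was below 1 TPM at 0.27 and 0.58 TPM, from 19 and 43 counts. Tfrc exceeded it by 4.90 ± 0.24 in log2(TPM + 1) (SD, n = 2). Slc11a2 exceeded Slc11a1 by 2.26 ± 0.32. The 8 macrophage markers, all detected, summed to 159 and 171 TPM, and the 6 neutrophil markers, all detected and all higher in replicate 2, summed to 62.4 and 93.1 TPM; their part in the levels of Slc11a1 and Lcn2 was not tested.

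Iron export was represented by a high level of ferroportin, Slc40a1, at 76.0 and 73.6 TPM. Heph, a copper-dependent ferroxidase that works beside ferroportin, stood at 19.7 and 18.7 TPM. Slc40a1 exceeded the importer Slc11a2 by 1.70 ± 0.071 in log2(TPM + 1) (SD, n = 2), a 3.35-fold ratio of mean TPM. Summed iron export was 95.7 and 92.3 TPM and summed iron uptake 72.5 and 76.3 TPM.

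Both iron regulatory proteins were present. Aco1, the cytosolic aconitase that binds iron-responsive elements when it lacks its iron-sulfur cluster, stood at 61.1 and 62.9 TPM, and Ireb2, which is degraded when iron is plentiful, at 28.3 and 26.1 TPM. The difference of Ireb2 minus Aco1 was -1.16 ± 0.11 in log2(TPM + 1) (SD, n = 2), so the Aco1 message was 2.28-fold the Ireb2 message in mean TPM. Message levels say nothing here of binding activity.

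The copper genes spanned a wide range. Slc31a1, the main copper importer of the plasma membrane, stood at 41.7 and 43.7 TPM and Slc31a2, a related protein of endosomes and lysosomes, at 19.6 and 21.5 TPM, a difference of 1.02 ± 0.044 in log2(TPM + 1) (SD, n = 2). Atp7a, the copper-exporting ATPase of most tissues, stood at 23.8 TPM in both libraries. Atp7b, the related ATPase best known from liver, was at 0.56 and 0.78 TPM, and Atp7a exceeded it by 3.89 ± 0.13. Atp7a and Slc31a2 did not differ beyond the limit.

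The Slc30a family, which mostly moves zinc out of the cytosol, had 10 members, of which 7 were detected. The highest was Slc30a9, known from mitochondria, at 46.1 and 47.2 TPM. Slc30a5 and Slc30a6, which form a dimer in the early secretory pathway, stood at 41.3 and 40.7 TPM and at 29.99 and 28.3 TPM. Slc30a9 and Slc30a5 did not differ beyond the limit, whereas Slc30a5 exceeded its partner by 0.48 ± 0.042 in log2(TPM + 1) (SD, n = 2). Slc30a7, of the Golgi, was lower at 7.17 and 7.31 TPM, with Slc30a5 above it by 2.35 ± 0.034.

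Slc30a4, an exporter of endosomal vesicles, stood at 5.68 and 5.58 TPM. Slc30a1, the plasma membrane zinc exporter, was low at 2.86 and 2.12 TPM, and Slc30a3, known from synaptic vesicles, was at 2.26 and 2.50 TPM. From Slc30a7 down to Slc30a3, no step between neighbours in log2(TPM + 1) was beyond the limit in both libraries. The step from Slc30a4 to Slc30a1 was 0.79 in replicate 1 and 1.08 in replicate 2 against a limit of 0.87, so the second lay beyond it. Without the added 1 this step would be wider in both libraries, and whether it would then pass was not scored.

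The other 3 members lay below 1 TPM. Slc30a2, known from the secretory vesicles of the mammary gland, stood at 0.59 and 0.86 TPM, and Slc30a4 exceeded it by 1.95 ± 0.18 in log2(TPM + 1) (SD, n = 2). Slc30a10, which exports manganese, stood at 0.09 and 0.30 TPM, and Slc30a1 exceeded it by 1.54 ± 0.40. Slc30a8, the zinc transporter of insulin granules, had 0 counts in both libraries, which allows up to 3 counts in each at 95% confidence for counting error only.

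The Slc39a family, which brings zinc into the cytosol, had 14 members, of which 11 were detected, and its summed level of 454 and 475 TPM was above the 136 and 135 TPM of the Slc30a family in both libraries. Slc39a7, which releases zinc from the endoplasmic reticulum, led at 165 and 174 TPM. Slc39a1, a widely expressed plasma membrane importer, followed at 82.6 and 83.9 TPM. Slc39a6 stood at 38.4 and 40.8 TPM, Slc39a13, of the early secretory pathway, at 33.3 and 38.9 TPM, Slc39a10 at 35.7 and 33.3 TPM and Slc39a5, of the basolateral membrane of epithelia, at 29.5 and 33.3 TPM. The steps from Slc39a7 to Slc39a1 and from Slc39a1 to Slc39a6 were beyond the limit in both libraries. Those between the 4 genes from Slc39a6 to Slc39a5 were not, although the step from Slc39a10 to Slc39a5 was beyond it in replicate 1, at 0.265 against 0.256.

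Slc39a6 and Slc39a10, which form a dimer at the plasma membrane, were the only pair of the 21 that did not differ, at 0.19 ± 0.13 in log2(TPM + 1) (SD, n = 2) against a limit of 0.26. The values were 0.10 in replicate 1 and 0.29 in replicate 2, so the second lay beyond the limit by itself. Slc39a7 exceeded Slc39a13 by 2.20 ± 0.098 and exceeded Slc30a7, which loads zinc into the secretory pathway, by 4.37 ± 0.040. At the plasma membrane, the importer Slc39a1 exceeded the exporter Slc30a1 by 4.60 ± 0.23 and its relative Slc39a3 by 2.67 ± 0.13.

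Slc39a9 stood at 19.3 and 18.5 TPM, Slc39a11 at 17.9 TPM in both libraries, Slc39a8, an importer of zinc and manganese, at 13.7 and 12.5 TPM and Slc39a3 at 11.3 and 13.2 TPM. Slc39a14, which also takes up manganese and iron that is not bound to transferrin, stood at 6.92 and 7.54 TPM and lay below Slc39a8 by 0.78 ± 0.17 in log2(TPM + 1) (SD, n = 2). These were the lowest detected members of the family. As given below, most of the Slc39a14 TPM was assigned to transcripts without a coding sequence. The step between Slc39a8 and Slc39a14 therefore does not compare coding messages alone.

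Slc39a4, the intestinal zinc importer, was below 1 TPM at 0.75 and 0.91 TPM. The difference of Slc39a4 minus Slc39a5 was -4.15 ± 0.029 in log2(TPM + 1) (SD, n = 2), so the gut importer was near the detection limit while its relative of the opposite membrane was 37.8-fold higher in mean TPM. Slc39a4 rested on 39 and 51 counts. Summed gut epithelium markers stood at 79.3 and 20.3 TPM in the same libraries, and their part in the levels of Slc39a4 and Slc39a5 was not tested. Slc39a2 stood at 0.43 and 0.51 TPM. Slc39a12, known from brain, had 0 counts in replicate 1 and 1 count in replicate 2.

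**Figure D3:**
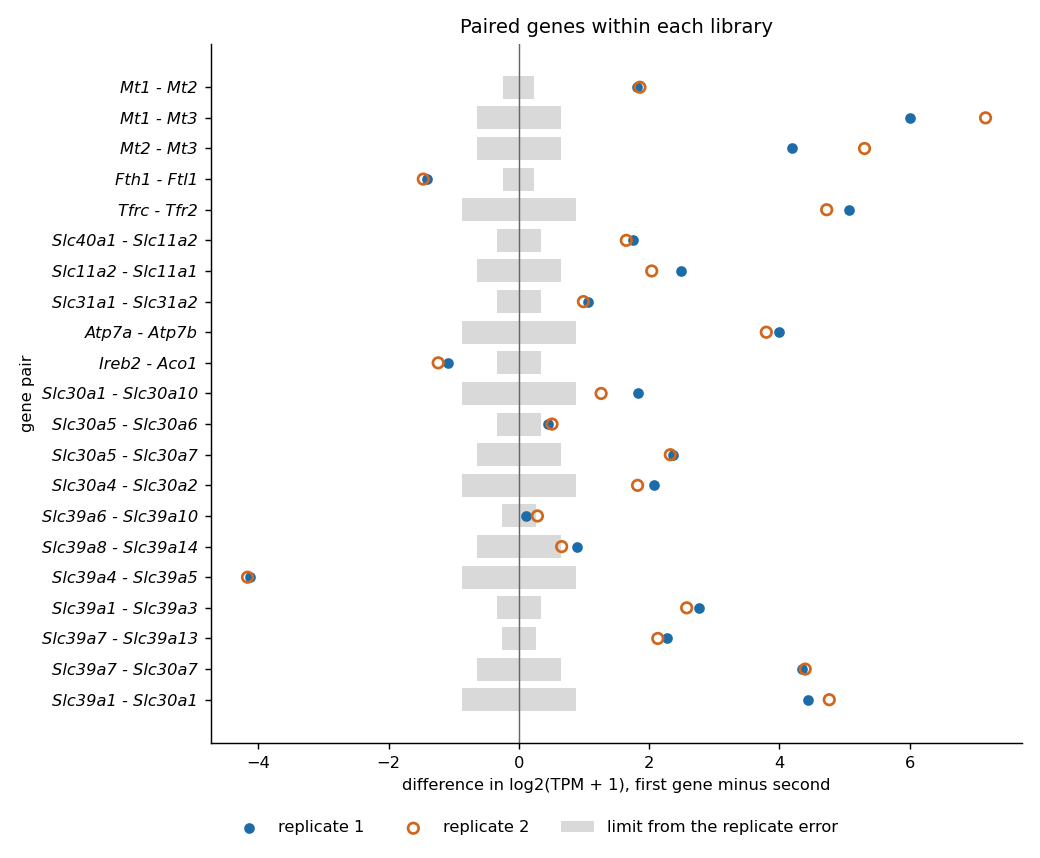
Difference in log2(TPM + 1) (x axis, first gene minus second) for the 21 pairs of related genes (y axis) in each library. The grey bar gives the limit set by the replicate error of genes at the level of the lower gene. Where the lower gene is under 1 TPM, the bar is that of genes of 1 to 3 TPM. Slc39a6 and Slc39a10 are the pair with a point inside the bar, and Mt1 and Mt3 are the farthest apart.

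The pools gave similar levels for most of the genes. Of 34 genes with a mean expected count of 100 or more, 0 differed 2-fold in TPM between the libraries, where 1.22% of protein-coding genes with such counts did. These are the 34 detected genes with Mt3 left out for its low count and Atp7b added. The median absolute log2 TPM ratio was 0.083 over the 34 detected genes and 0.10 over all detected protein-coding genes, and 24 of the 34 genes lay within 10% of each other. Replicate 2 was higher for 20 of the 34 genes and replicate 1 for 14. At a 1.5-fold threshold 1 gene, Slc11a1, differed, against 3.02% of protein-coding genes. With counts down to a mean of 10, 3 of 40 genes differed 2-fold, Mt3, Tfr2 and Slc30a10, against 4.31% of protein-coding genes. Past the 95th percentile for their level lay 1 of the 34 detected genes, Mt3, against 5.02% of detected protein-coding genes. For 34 to 40 genes, counts of 0 to 3 lie near these background shares.

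Mt3 was 2.43-fold higher in replicate 1 by TPM, and the ratio of its counts scaled to depth, replicate 2 over replicate 1, was 0.41 with an exact Clopper-Pearson 95% interval of 0.249 to 0.650, which covers counting error only. Skeletal muscle and gut epithelium markers were also higher in replicate 1, with 0 of 6 and 0 of 5 markers higher in replicate 2; their part in the Mt3 difference was not tested.

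Tfr2 and Slc30a10 were higher in replicate 2. The scaled count ratio was 2.08 (1.19 to 3.78) for Tfr2 and 3.53 (1.84 to 7.31) for Slc30a10, again with exact 95% intervals for counting error. Both genes are known from liver, all 8 liver markers were higher in replicate 2, and their sum was 1.86-fold higher there. Liver was not alone in this. All 9 red cell markers (sum 1.14-fold), all 6 adrenal cortex markers (3.32-fold) and all 5 adrenal medulla and sympathetic markers (5.70-fold) were also higher in replicate 2. Skeletal muscle and gut epithelium markers went the other way. Atp7b, also known from liver, had a ratio of 1.37 (1.04 to 1.81). Which of the metal genes are known from liver was not listed beforehand, so Tfr2, Slc30a10 and Atp7b are examples only. The part of RNA from liver or from the other sources named here was not tested.

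Slc11a1 differed in TPM but hardly in counts. Its TPM was 1.55-fold higher in replicate 2, whereas its scaled count ratio was 1.12 with an interval of 0.898 to 1.40 that includes equality. The difference between the scales came with a short non-coding transcript, Slc11a1-206 of 378 nt, which went from 0.20 to 1.66 TPM on 1.36 and 12.2 counts, while the coding transcript Slc11a1-201 stood at 2.55 and 2.72 TPM.

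**Figure D4:**
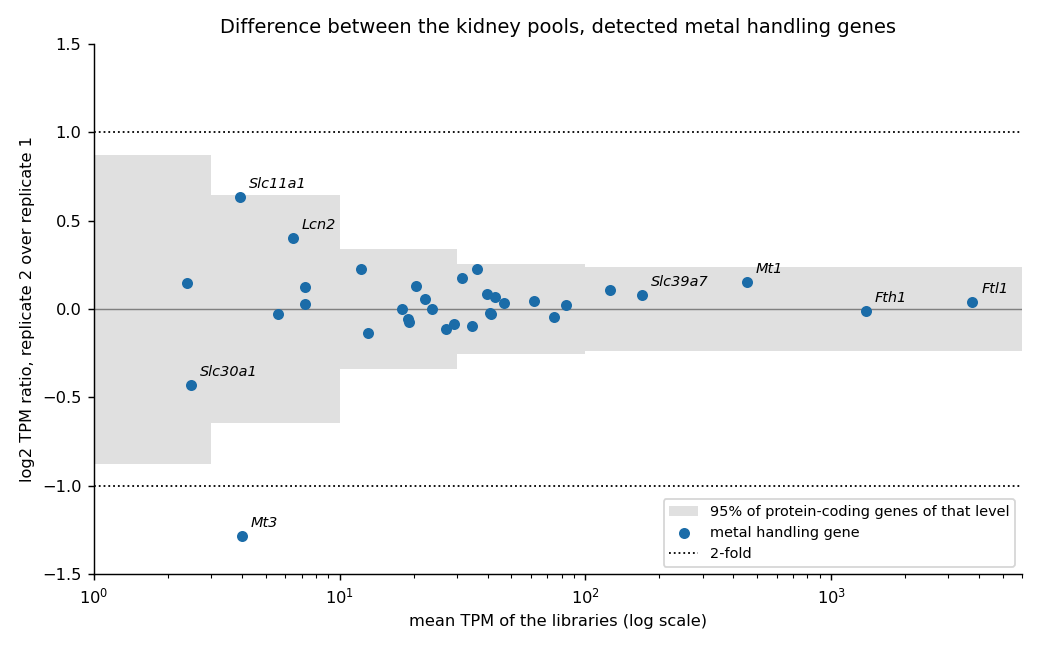
Log2 TPM ratio of replicate 2 over replicate 1 (y axis) against mean TPM (x axis, logarithmic) for the 34 detected metal handling genes, with grey areas that hold 95% of protein-coding genes of that level and dotted lines at 2-fold. Mt3 lies outside the grey area and beyond the lower 2-fold line, and Slc11a1 lies at the upper edge of its area.

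Transcript levels were set beside the stem-loops found in the annotated transcripts. Reads over the elements were not examined. Shares are the percent of a gene's TPM, as split among annotated transcripts by the authors' quantifier. Fth1-201 was the only annotated transcript of Fth1 in the table with signal and held 100%, Ftl1-201 held 98.5% and 98.4%, and Slc40a1-201 held 96.6% and 95.7%. In the annotation searched, all of them have the 5′ UTR element. Mt1-201 and Mt2-201 each held 100% of their gene. For Fth1, the transcript length was 866 nt in the deposited table and 929 nt in the annotation searched.

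Tfrc and Slc11a2 were split. Tfrc-201, the full-length coding transcript of 4890 nt with all 4 elements, held 64.1% and 67.1% of the gene's TPM, and transcripts with an element together held 88.5% and 89.0%. The remainder of those was Tfrc-204, a retained-intron form at 10.2 and 8.97 TPM.

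Slc11a2 was made in 2 main coding forms at nearly equal levels. The form with the 3′ UTR element, Slc11a2-205 of 4415 nt, stood at 10.3 and 10.4 TPM, and the form without it, Slc11a2-201 of 3025 nt, at 10.5 and 11.5 TPM. Their shares of TPM were 47.1% and 45.6% against 48.1% and 50.7%. By share of expected counts, which favours long transcripts, the order turned, with 58.6% and 56.8% for the form with the element against 40.7% and 42.8%. Which form leads therefore rests on the unit.

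The transcripts of Atp7a, Slc30a9 and Slc39a14 carried no element in a coding form. Atp7a-201 held 51.7% and 54.3% of the TPM of Atp7a, with a second coding transcript, Atp7a-202, at 10.3 TPM in both libraries. Slc30a9-201 held 66.8% and 66.5% of its gene, with a length of 2544 nt in the deposited table and 5648 nt in the later annotation. Slc39a14 was led by Slc39a14-211, a retained-intron transcript without a coding sequence, at 47.0% and 43.0% of TPM, from 104 and 111 counts. Its full-length coding transcript Slc39a14-202 held 10.8% and 10.3%, and in both libraries most of the gene's TPM was assigned to transcripts without a coding sequence.

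**Figure D5:**
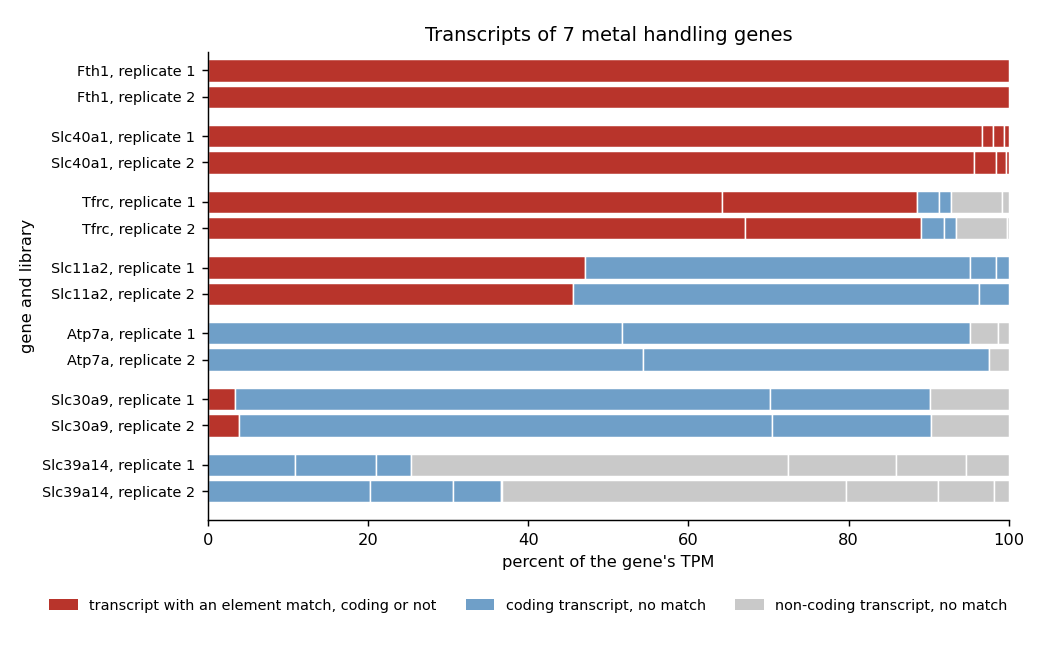
Percent of each gene's TPM (x axis) held by its annotated transcripts (segments) in both libraries for 7 metal handling genes (y axis), coloured by whether the transcript holds an iron-responsive element match and whether it is coding. Fth1 and Slc40a1 are covered by matching transcripts, Slc11a2 is divided between forms with and without a match, the small matching segment of Slc30a9 is a retained-intron form, and Slc39a14 is mostly non-coding forms.

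The other genes of these pathways were described from a list of 57, of which 56 were matched and 47 were detected. Detected were 34 of 41 iron genes, 10 of 10 copper genes and 3 of 5 zinc genes, and 7 genes were below 1 TPM in both libraries. The 3 highest copper genes were the superoxide dismutase Sod1 at 981 and 955 TPM, the copper chaperone Atox1 at 338 and 326 TPM, which hands copper to Atp7a and Atp7b, and Commd1, which acts on the sorting of those ATPases, at 340 and 310 TPM. Among the zinc genes the highest were Zpr1, a zinc finger protein, at 51.7 and 53.8 TPM, the channel Trpm7 at 37.6 and 40.3 TPM and Mtf1, the factor that binds metal response elements, at 12.5 and 11.5 TPM. Most of the Mtf1 value, 79.5% and 80.5%, was assigned to Mtf1-204, a retained-intron transcript of 781 nt, at 9.96 and 9.26 TPM. The coding transcript Mtf1-201 stood at 1.22 and 1.66 TPM.

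Among the iron genes, the iron chaperone Pcbp1 stood at 415 and 395 TPM and transferrin, Trf, at 56.5 and 133 TPM. Trf was the only 1 of 45 tested genes of the list that differed 2-fold between the pools, being 2.36-fold higher in replicate 2, against the background of 1.22%. Trf is made mainly by the liver, and summed liver markers stood at 207 and 385 TPM in the same libraries; their part was not tested. Hepcidin, Hamp, which lowers ferroportin, had 0 counts in both libraries, which allows up to 3 counts in each. The mitochondrial ferritin Ftmt also had 0 counts in both.

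Elements were also looked for in the other genes of these pathways. Of 56 genes, 7 had a match in a coding transcript, beside 12.6% of all protein-coding genes searched. With 5 full stem pairs there were 2, beside 1.35%. The match lay in a UTR in 3 genes, among them Alas2 and Epas1 with a match in the 5′ UTR. For Alas2, the first enzyme of haem synthesis in red cells, the gene stood at 57.8 and 70.2 TPM and transcripts with the element held 92.2% and 93.9%. Epas1, a hypoxia-inducible factor that acts on Slc11a2 and Slc40a1, stood at 6.92 and 7.69 TPM, and transcripts holding 100% of it carried the element, with 5 pairs when 1 extra base was allowed and 3 without it.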

How the data were processed

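Total RNA of 2 pooled kidney samples was extracted with the mirVana method and sequenced with spike-ins, per the labels. Reads were quantified on mm10 with GENCODE M4, per the text files beside the tables; for aligner, quantifier and strand setting, names were not given in the sources used here, and overlapping genes are therefore uncertain. Deposited expected counts estimate the reads of a gene or transcript, and the deposited TPM and FPKM values are scaled for length and depth by the authors. The authors' percent of each gene held by a transcript and the score giving the standard deviation of each count were also read, per the file headers. Names and coordinates came from GENCODE M21, matched for 98.0% of mouse genes. No column belonged to another sample (0 columns).

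The genes and lists were chosen with earlier results of these data known. Every one of the 42 genes is named; of other metal genes, the 3 highest of each metal and any that differed between pools. Other list genes are only counted, and the values of 1 gene under this rule are not reported here. Slc39a1-ps, a pseudogene at 0.05 TPM, was left out. Hamp, Ftmt, Alas2, Epas1 and the Slc11a1, Tfrc, Atp7a and Slc39a14 transcripts beyond the leading ones were named with their values already seen. The same holds for the Mtf1 transcripts. Zbtb7, a list gene, had no match and is not analysed here.

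Detection required 1 TPM in each library. Pools differed at a 2-fold TPM ratio with a mean count of 100. Clopper-Pearson intervals (95%) and the floor of 3 counts for a count of 0 cover counting error only. Searches and ratios were tested on simulated data. Alternatives used FPKM, TPM rescaled over protein-coding genes, edgeR 4.0.16 TMM factors, DESeq2 1.42.0 size factors, other thresholds and each library alone. Python 3.11.15, pandas 2.3.3 and scipy 1.17.1 were used.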

Additional observations from a re-analysis of the deposited data

How the results depend on the processing

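The number of genes detected in both libraries was 34 and ranged from 30 at 5 TPM to 37 at 0.5 TPM. The number differing between pools was 0 with FPKM, TMM factors, DESeq2 size factors and rescaled TPM, 1 at 1.5-fold and 3 at a mean count of 10. The number of pairs that differed was 20 in all settings except 17 at the 99th percentile, where Slc30a1 and Slc30a10, Slc30a5 and Slc30a6, and Slc39a8 and Slc39a14 no longer differed, and 21 without replicate 1; no pair changed direction. The summed level of 6666 TPM became 8141 when TPM was rescaled over protein-coding genes and 4482 in FPKM, which are changes of unit, and was 6581 to 6751 with each library alone. Of 10 genes with named transcripts, 8 had a leading transcript above 50% of TPM, and 9 by count or without replicate 1. Genes with an iron-responsive element match went from 9 to 4 with 5 full stem pairs, where Slc11a2 was lost; using counts or either library alone does not bear on which genes match. Other pathway genes detected numbered 38 to 49. Scaling moved the median log2 ratio of detected genes by at most 0.044. No paired analysis was possible because the study has a single group. Depth limits what can be said of the 8 genes below 1 TPM.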
